A study of Sus scrofa with 8 samples.

Results

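The genes described here were chemokine genes of the pig retina, with the cell classes in which their transcripts were found after intravitreal delivery of an adeno-associated virus (AAV) vector. The genes were chosen by name: CCL2, CCL3L1, CCL5, CXCL8, CXCL9, CXCL10, CXCL11, CXCL16 and CX3CL1. Of these 9 genes, 7 had a row under their symbol among the 35683 features of the count tables, and CXCL16 and CX3CL1 were not analysed here. For each gene, unique molecular identifier (UMI) counts were summed in every retina and every cell class, and the rod-like nuclei served as the gauge of free RNA. Whether rods make some of these transcripts themselves was not tested.

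Chemokines are small secreted proteins that bind G protein-coupled receptors on leukocytes and set the direction in which these cells migrate. CXCL9, CXCL10 and CXCL11 are induced by interferons and share the receptor CXCR3 of activated T and NK cells, CCL2 recruits monocytes through CCR2, and CCL5 and CCL3L1 attract T cells and monocytes. CXCL8 is the main neutrophil attractant. In the retina, Müller glia, astrocytes and microglia are known sources of such signals, whereas CCL5 is typically a product of activated lymphocytes.

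Single-nuclei RNA sequencing was performed on 8 retinas of 6 female Yucatan minipigs a few months of age. AAV-injected animals had received AAV2.7m8/CAG-GFP in both eyes, at 5e11 vector genomes per eye, where the ubiquitous CAG promoter drives green fluorescent protein (GFP, counted as EGFP), and vehicle-injected animals had received the vehicle. Animals of both arms had been given intravitreal Vitrase (hyaluronidase) 2 weeks before dosing and weekly systemic methylprednisolone, so that all retinas came from steroid-treated animals. At week 2, both eyes (OS, left, and OD, right) of AAV animal 7221 and of vehicle animal 7222 were profiled, so that each arm was 1 animal, and week 2 values are given without a test. At week 4, the left eyes of AAV animals 7248 and 7249 and of vehicle animals 7250 and 7251 were profiled, 2 animals per arm, and the labels give each of these 4 groups as its own batch, so that batch and group cannot be told apart.

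The 7 measured genes lay in 2 regions of the pig genome (build Sscrofa11.1, RefSeq annotation). CXCL9 (8:71665541-71670236), CXCL10 (8:71693641-71695948) and CXCL11 (8:71713790-71725669) followed each other on the minus strand of chromosome 8, with gaps of 23.4 kb and 17.8 kb, and CXCL8 lay 1730 kb from CXCL9. CCL3L1 and CCL5 lay 159.4 kb apart on chromosome 12, and CCL2 lay 1139 kb beyond CCL5. The 250 bases before the annotated gene start are shown for CXCL9 (chr8:71670237-71670486, minus strand) and CXCL10 (chr8:71695949-71696198, minus strand), because both members were far above the rod level in the myeloid-like class. They are written 5′ to 3′ along the gene, with matches to an interferon-stimulated response element (ISRE) or to the NF-kB consensus in capitals.
CXCL9: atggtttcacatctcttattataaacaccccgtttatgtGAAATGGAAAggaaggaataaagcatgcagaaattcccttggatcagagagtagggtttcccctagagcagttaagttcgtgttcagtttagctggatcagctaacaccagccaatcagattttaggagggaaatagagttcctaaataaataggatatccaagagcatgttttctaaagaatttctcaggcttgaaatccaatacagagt
CXCL10: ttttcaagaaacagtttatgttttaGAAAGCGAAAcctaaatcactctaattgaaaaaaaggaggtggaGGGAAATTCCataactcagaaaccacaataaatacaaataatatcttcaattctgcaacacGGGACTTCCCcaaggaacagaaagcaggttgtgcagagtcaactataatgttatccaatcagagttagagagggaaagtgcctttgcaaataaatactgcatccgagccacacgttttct

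The ISRE match began 211 bases before the start of CXCL9 and 225 bases before that of CXCL10, and no other measured member whose window is described here held one. Of 19531 RefSeq promoter windows of the same length, 588 (3.01%) held an ISRE match on either strand. CXCL10 also held NF-kB matches at 181 and 120 bases before the start, and CXCL11 held one at 126 bases, against 14% of all windows. CCL2 held matches to the gamma-activated site (TTCNNNGAA) at 166 and 107 bases and CXCL8 at 211 bases before the start, against 6.11% of windows. A match is a description of the letters, and binding was not measured.

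Over all retinas, 350537 nuclei of 388491 barcodes were kept, 36282 to 49200 per retina, with 111704702 to 164085422 UMIs in kept nuclei. Each retina was loaded on 4 lanes, and of 368982 distinct barcodes 18860 were used by more than 1 lane. Nuclei were placed in classes by markers that held no chemokine, receptor or interferon-induced gene: 106266 rod-like, 20549 Müller-like, 1290 astrocyte-like, 2772 myeloid-like and 1828 T or NK-like nuclei passed, 96120 stayed unassigned, and 13144 nuclei with markers of several families were left out of the classes. Of the named nuclei, 68.3% of rod-like, 78.6% of Müller-like, 15.9% of astrocyte-like, 26.9% of myeloid-like and 28.8% of T or NK-like nuclei would have failed a stricter gate that divides their marker UMIs by 2. The classes that make chemokines did not stand in equal number in the groups. Myeloid-like nuclei numbered 1375 and 853 in the week 4 AAV retinas against 69 and 75 in the vehicle retinas, and T or NK-like nuclei 1017 and 790 against 2 and 0. Müller-like nuclei went the other way, 1721 and 628 against 2754 and 2855. At week 2, T or NK-like nuclei numbered 6 and 10 in the AAV retinas and 2 and 1 in the vehicle retinas. In the whole retina sums, a change in the number of cells of a type and a change in RNA per cell cannot be told apart.

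In whole retina sums, all 7 measured chemokine genes had their highest levels in the 2 AAV retinas of week 4. CXCL10, an interferon-induced attractant of activated T cells, was the most abundant there, with 1697 UMIs in 7248 and 1402 in 7249, against 3 in 7250 and 2 in 7251. This corresponded to 11.1 and 9.05 CPM (UMIs per 1000000 UMIs of the retina or class) against 0.0252 and 0.0179. The ratio of the levels pooled over the retinas of each arm was 465.1-fold (95% counting interval 199.1 to 1433). In edgeR's quasi-likelihood test the log2 fold change was 8.80 ± 0.30 (SE; adjusted p = 0.000133). This SE was derived from the F statistic of the test and is narrower than the counting interval, which rests on few vehicle UMIs. CXCL9, the sister gene, gave 935 and 618 UMIs against 3 and 0 (log2 fold change 8.50 ± 0.61, adjusted p = 0.00105). CXCL11 was rarer, with 68 and 58 UMIs against 4 and 3 (log2 fold change 3.72 ± 0.40, adjusted p = 0.00441). For each of these 3 CXCR3 ligands the AAV and vehicle retinas of week 4 did not overlap. With 2 retinas against 2, an exact permutation test of such an order cannot go below p = 0.333. The share of all genes with such an order was not counted.

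CCL2, which recruits monocytes, gave 924 and 668 UMIs in the week 4 AAV retinas against 1 and 22 in the vehicle retinas. The levels were 6.06 and 4.31 CPM against 0.0084 and 0.197 CPM, and the log2 fold change was 5.67 ± 0.78 (adjusted p = 0.0108). The vehicle retinas were unequal, and both lay below the AAV retinas. CCL5, an attractant of T cells, had the highest vehicle level of the members, 124 and 71 UMIs or 1.04 and 0.636 CPM, and rose to 859 and 763 UMIs or 5.63 and 4.92 CPM (log2 fold change 2.65 ± 0.28, adjusted p = 0.00435). CCL3L1, a related CC chemokine, gave 82 and 94 UMIs and none in either vehicle retina, which made its level at least 44-fold higher (adjusted p = 0.00352). This and the later minimum folds take 3 counts over the 2 vehicle retinas of the same week together as the vehicle level. CCL3L1 belongs to a family of near-identical copies, and its reads could be shared with copies that were not counted under this name. CXCL8, the neutrophil attractant, gave 16 and 4 UMIs and none in the other 6 retinas and did not pass the filter on low counts.

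Of the 7 measured members, 6 were called higher at week 4 and none lower, where 6.71% of all 26698 genes tested were called higher and 4.45% lower. The median log2 fold change of the 6 tested members was 7.09 and that of all genes was -0.01. A member that passed the filter through the AAV retinas alone had to differ, so that this count is a description of the members and not a test of the list. With all 6 animals in 1 fit and week as a term, 4 members were called, and CXCL9 (adjusted p = 0.2) and CXCL11 (adjusted p = 0.164) were not. In the smaller fit without 7249, which leaves 1 AAV retina, CXCL8 passed the filter on low counts, and no call is read there.

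**Figure D1:**
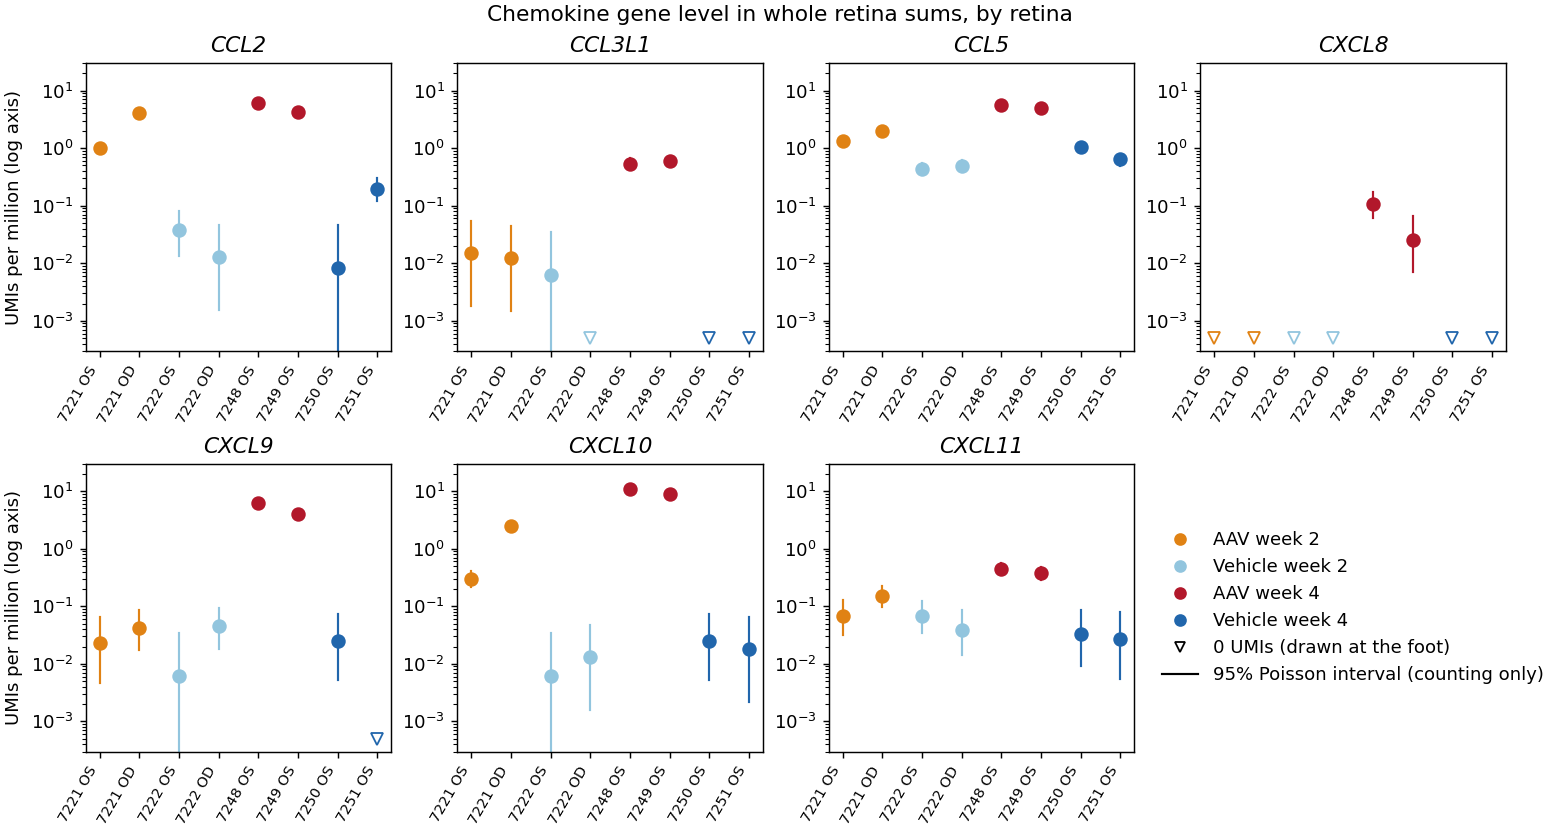
Level of each measured chemokine gene in whole retina sums, in CPM on a logarithmic axis, for the 8 retinas by group. Points are retinas with exact 95% Poisson bars, and retinas with no UMI are drawn as open symbols at the foot of the axis, where no level is read. The 2 AAV retinas of week 4 sit above the vehicle retinas for every gene but CXCL8, where 16 and 4 UMIs stand against none. At week 2 the AAV eyes already stand above the vehicle eyes for CCL2 and CXCL10, and by less for CCL5. With 2 retinas against 2, this order alone is not a test.

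At week 2 the picture was narrower. CCL2 gave 134 UMIs in 7221 OS and 657 in 7221 OD, against 6 and 2 in the eyes of the vehicle animal, a 105.5-fold ratio of pooled levels (counting interval 53.3 to 245.1). CXCL10 gave 40 and 400 UMIs against 1 and 2, a 156.4-fold ratio (53.2 to 761.4). The right eye thus held more of both transcripts than the left eye of the same animal. CCL5 gave 175 and 328 UMIs against 71 and 76, a 3.65-fold ratio (3.03 to 4.42). CXCL11 gave 9 and 25 UMIs against 11 and 6, so that the eyes of the AAV and vehicle animals overlapped. CXCL9 stayed at 3 and 7 UMIs against 1 and 7, CCL3L1 at 2 and 2 against 1 and 0, and CXCL8 at 0 in all 4 eyes. These intervals cover counting error between 2 animals only.

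The change between weeks was tested as an interaction over the 6 animals, with the eyes of each week 2 animal summed, and no member passed in edgeR's test, which called 0.697% of 27993 genes in either direction. The difference of the log2 fold changes (week 4 minus week 2) was 8.20 ± 1.29 for CXCL9 (adjusted p = 0.0681), 2.72 ± 0.67 for CXCL11 (adjusted p = 0.148), 1.69 ± 0.80 for CXCL10 (adjusted p = 0.425), 0.86 ± 0.47 for CCL5 (adjusted p = 0.388) and -0.94 ± 1.42 for CCL2 (adjusted p = 0.758). For CCL3L1 it was 7.94 (adjusted p = 0.21), and CXCL9, CXCL11 and CCL3L1 were the 3 members with an unadjusted p under 0.05, as were 5033 of the 27993 genes. DESeq2's Wald test called CXCL9 (difference 8.28, adjusted p = 3.1e-09), where it called 5.48% of genes. The week 2 arms enter that test as 1 animal each, assumed to vary like those of week 4.

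At week 4, CXCL10 transcripts were, among the named classes, densest in myeloid-like nuclei, the class of microglia, monocytes and macrophages. In the week 4 AAV retinas, 19.4% (95% exact binomial interval 17.4 to 21.6) and 23.6% (20.8 to 26.6) of myeloid-like nuclei held at least 1 CXCL10 UMI, against 1.45% and 2.67% in the vehicle retinas. Rod-like nuclei of the same AAV retinas held CXCL10 in 0.965% and 0.891% of nuclei, and in none of the vehicle retinas. The median rod-like nucleus had 2023 and 2317 UMIs, and the median myeloid-like nucleus 2415 and 3217. After each nucleus was thinned to 1000 UMIs, the shares were 10.5% and 12.8% in myeloid-like against 0.43% and 0.388% in rod-like nuclei. The CXCL10 level in the myeloid-like class was 194.9 and 216.2 CPM, 43.6 (37.2 to 51.3) and 60.4 (51.5 to 71) times that of the rods. These nuclei made up 2.84% and 1.82% of all nuclei and carried 43.6% and 43.7% of all CXCL10 UMIs.

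Myeloid-like CXCL10 was also present at week 2 and, at a low level, in vehicle retinas. It reached 34.9 CPM in 7221 OS and 116.9 CPM in 7221 OD, where 5.71% and 13.5% of myeloid-like nuclei were positive. The vehicle eyes gave 0 and 10.8 CPM at week 2 and 28 and 14.4 CPM at week 4. The week 4 log2 fold change within the class was 3.49 ± 0.41 (edgeR, adjusted p = 0.000144), and the ratio of pooled levels was 10-fold (4.29 to 31). The class held different nuclei in each arm. At week 4, nuclei with genes of resident microglia alone made up 6.55% and 5.16% of it in the AAV retinas and 68.1% and 72% in the vehicle retinas. In these nuclei CXCL10 was at 105.6 and 201.3 CPM against 42.5 and 9.89 CPM, the vehicle values resting on 3 UMIs and 1 UMI.

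The Müller-like class, the main glia of the retina, held CXCL10 in 2.09% and 2.55% of nuclei at week 4 and in none of the vehicle nuclei, but at a far greater depth of 5813 and 5968 UMIs per nucleus. Its CXCL10 level was 1.53 (1.15 to 2.01) and 1.55 (0.949 to 2.41) times that of the rods, an interval above 1 in 7248 and one that includes 1 in 7249. The astrocyte-like class gave 2.58 and 3.51 times the rod level, and T or NK-like nuclei gave 6.42 and 5.68 times. These ratios are per UMI, and the part of depth in them was not tested. The median nucleus had 1223 and 1180 UMIs in the T or NK-like class and 2023 and 2317 in rods. In week 4 tests by class CXCL10 was called higher in rod-like nuclei (at least 49-fold, adjusted p = 0.00467), Müller-like nuclei (at least 32.9-fold, adjusted p = 0.00113) and astrocyte-like nuclei (at least 7.56-fold, adjusted p = 0.00544). It was also called in cone-like (adjusted p = 0.0118), bipolar-like (adjusted p = 0.00345) and amacrine-like nuclei (adjusted p = 0.00602). Since rods rose too, each class level is given beside the rod level.

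CXCL9 shared the myeloid-like class with CXCL10, but was found there mainly at week 4. Its UMIs were in 7.27% (5.96 to 8.78) and 7.39% (5.72 to 9.35) of myeloid-like nuclei, against 0.569% and 0.473% of rods, and in no myeloid-like nucleus of any vehicle retina. Thinned to 1000 UMIs, the CXCL9 shares were 4.1% and 3.59% against 0.288% and 0.205%. The myeloid-like level of 89.6 and 80.1 CPM was 33.6 (27.1 to 41.8) and 32.9 (26.5 to 40.9) times that of the rods, and was at least 7.02-fold higher than in vehicle nuclei of the class (adjusted p = 0.000979). At week 2, 1.12% of the myeloid-like nuclei of 7221 OD and none of 7221 OS held CXCL9. Myeloid-like nuclei carried 36.4% and 36.7% of the CXCL9 UMIs of the week 4 AAV retinas. In the astrocyte-like class 7248 gave 14.5 times the rod level and 7249 gave 0.469 times, and of the 47 astrocyte-like CXCL9 UMIs of 7248, 25 came from 1 nucleus. Of the 11 endothelial-like nuclei of 7249, 1 held 9 CXCL9 UMIs, which put that class at 57.7 times the rod level (25.8 to 112.7), above the myeloid-like class.

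The ratio of CXCL9 to CXCL10 UMIs was not the same in every class. It was 0.551 and 0.441 in the whole week 4 AAV retinas, 0.459 and 0.37 in myeloid-like nuclei, 0.597 (0.471 to 0.754) and 0.68 (0.544 to 0.846) in rod-like nuclei, and 0.127 (0.0557 to 0.254) and 0.273 (0.0905 to 0.694) in Müller-like nuclei. The Müller-like ratio lay below that of the rods in 7248, and in 7249, with 6 CXCL9 UMIs, the intervals overlapped. CXCL11 was too rare to place with the same precision. Myeloid-like nuclei of the week 4 AAV retinas gave 7 and 8 CXCL11 UMIs, 4.04 (1.44 to 9.95) and 8.54 (3.24 to 20.4) times the rod level, while rod-like nuclei gave 20 and 19 UMIs, or 29.4% and 32.8% of all CXCL11 UMIs.

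**Figure D2:**
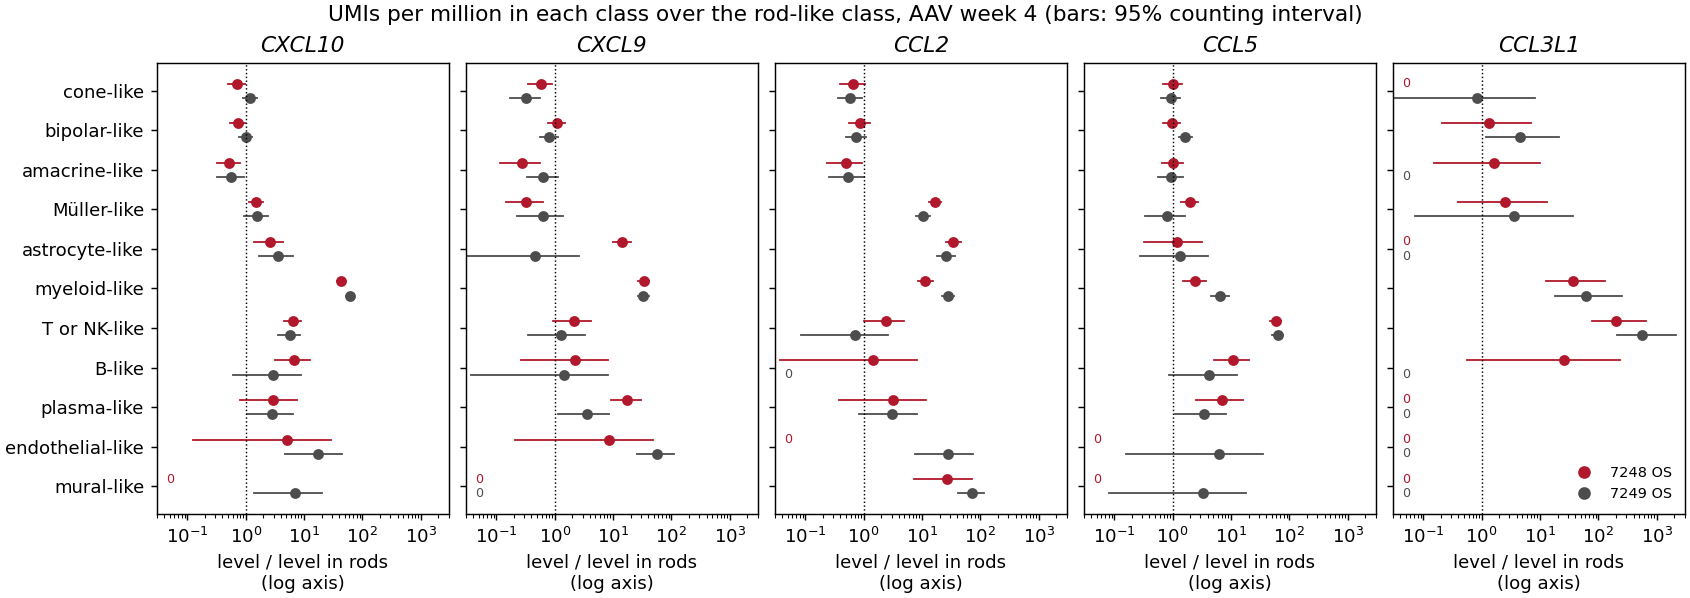
Level of CXCL10, CXCL9, CCL2, CCL5 and CCL3L1 in each cell class relative to rod-like nuclei of the same retina, on a logarithmic axis, for the 2 AAV retinas of week 4, with exact 95% intervals and a printed 0 where a class had no UMI. CXCL9 and CXCL10 stand high in myeloid-like nuclei, CCL3L1 and CCL5 in T or NK-like nuclei, and CCL2 in astrocyte-like, myeloid-like, mural-like (17 and 26 nuclei) and Müller-like nuclei, while cone-like, bipolar-like and amacrine-like nuclei lie near or below 1 for CXCL10, CXCL9 and CCL2.

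Within the myeloid-like class, nuclei were split by detected genes of resident microglia (such as P2RY12) and of monocytes and macrophages (such as CD163). Nuclei with resident genes alone made up 52.9% and 51.7% of the class at week 2 in the AAV retinas, and 6.55% and 5.16% at week 4. CXCL10 was found in 15.6% and 18.2% of the nuclei with resident genes alone, in 19.1% and 24.2% of those with macrophage genes alone, and in 19.8% and 24% of those with both. CXCL9 was found in 5.56% and 2.27%, 8.63% and 11%, and 6% and 6.27% of the same 3 sets. CCL2 was found in 8.89% and 4.55%, 4.14% and 12.7%, and 4.98% and 15.6%. CXCL10 was thus present in each set, and CCL2 had no order that held in both animals.

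Myeloid-like nuclei that held CXCL9 or CCL2 often held CXCL10 as well, while most CXCL10-positive nuclei held neither CXCL9 nor CCL2 in a given pair. CXCL10 was present in 48 of 100 CXCL9-positive nuclei of 7248 and in 32 of 63 of 7249, or 48% and 50.8%, against 17.2% and 21.4% of CXCL9-negative nuclei. CCL2-positive myeloid-like nuclei held CXCL10 in 42.4% and 42.5% of cases, against 18.3% and 20.5% of CCL2-negative ones. In the other direction, CXCL9 was present in 18% and 15.9% of CXCL10-positive nuclei, against 4.69% and 4.75% of CXCL10-negative ones. For CCL2 these shares were 10.5% and 25.4% against 3.43% and 10.6%. Positive nuclei were deeper, with a median of 3276 and 3895 UMIs in CXCL9-positive against 2332 and 3160 in CXCL9-negative nuclei, and the part of depth in these shares was not tested.

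CCL2 had a different distribution, with high shares in glia and in the few mural-like nuclei. In astrocyte-like nuclei, the glia of the nerve fiber layer, 35.7% (27.4 to 44.7) and 29.3% (19.7 to 40.4) held CCL2 in the week 4 AAV retinas, against 0.538% and 1.85% in the vehicle retinas. Müller-like nuclei held it in 10.8% (9.38 to 12.4) and 8.28% (6.25 to 10.7), against 0% and 0.245%. Rods held CCL2 in 0.464% and 0.555% of nuclei of the AAV retinas and in none of the vehicle retinas. These glial nuclei were deep, with medians of 9426 and 10187 UMIs in astrocyte-like nuclei against 4634 and 4638 in the vehicle retinas. Thinned to 1000 UMIs, CCL2 remained in 4.76% and 3.66% of astrocyte-like and 2.27% and 0.796% of Müller-like nuclei, against 0.231% and 0.228% of rods.

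Per UMI, the CCL2 level in astrocyte-like nuclei was 70.8 and 57.1 CPM against 1.18 and 5.72 CPM in the vehicle retinas (log2 fold change 4.14 ± 0.46, adjusted p = 0.00031). It was 34.5 (25.4 to 46.9) and 25.9 (18.3 to 36.1) times that of the rods. In Müller-like nuclei the level was 34.5 and 22.9 CPM against 0 and 1.18 CPM (log2 fold change 5.56 ± 0.60, adjusted p = 0.00114), and 16.8 (13.3 to 21.4) and 10.4 (7.84 to 13.7) times that of the rods. Müller-like nuclei carried 38.9% of the CCL2 UMIs of 7248 and 13.6% of those of 7249, while astrocyte-like nuclei carried 9.31% and 7.49% and myeloid-like nuclei 9.63% and 25.9%. The mural-like class, of cells that surround blood vessels, had only 17 and 26 nuclei in these retinas. Of these nuclei, 23.5% and 15.4% held CCL2, from 4 and 19 UMIs, at 56 and 155.8 CPM, without a test.

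Myeloid-like nuclei also held CCL2, already at week 2. In the AAV animal of week 2 the level was 59.9 and 142.5 CPM, with 7.86% and 20.2% of myeloid-like nuclei positive. At week 4 it was 23.4 and 61 CPM, with 4.8% (3.73 to 6.07) and 14.1% (11.8 to 16.6) positive, so that the weeks overlapped. In all 4 vehicle retinas CCL2 was at 0 in this class, and the week 4 difference was not called (at least 3.24-fold higher, adjusted p = 0.0811). Under some alternatives, given with the dependence on processing, it was called. In 7221, CCL2 was at 13.7 and 25 CPM in astrocyte-like and 1.86 and 10.1 CPM in Müller-like nuclei, below the week 4 AAV retinas in both classes. Unassigned nuclei held 42.5% and 41.7% of the CCL2 UMIs of 7221, against 16.3% and 12.6% in the week 4 AAV retinas. The part of the gates in the lower glial levels was not tested. No member was called for a difference between weeks within any class tested, so that the weeks were not shown to differ. The interaction fits called 0.135% of genes in rod-like, 0.0103% in cone-like, 0% in bipolar-like, 0.0458% in amacrine-like, 3.38% in Müller-like, 1.48% in astrocyte-like and 1.3% in myeloid-like nuclei.

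**Figure D3:**
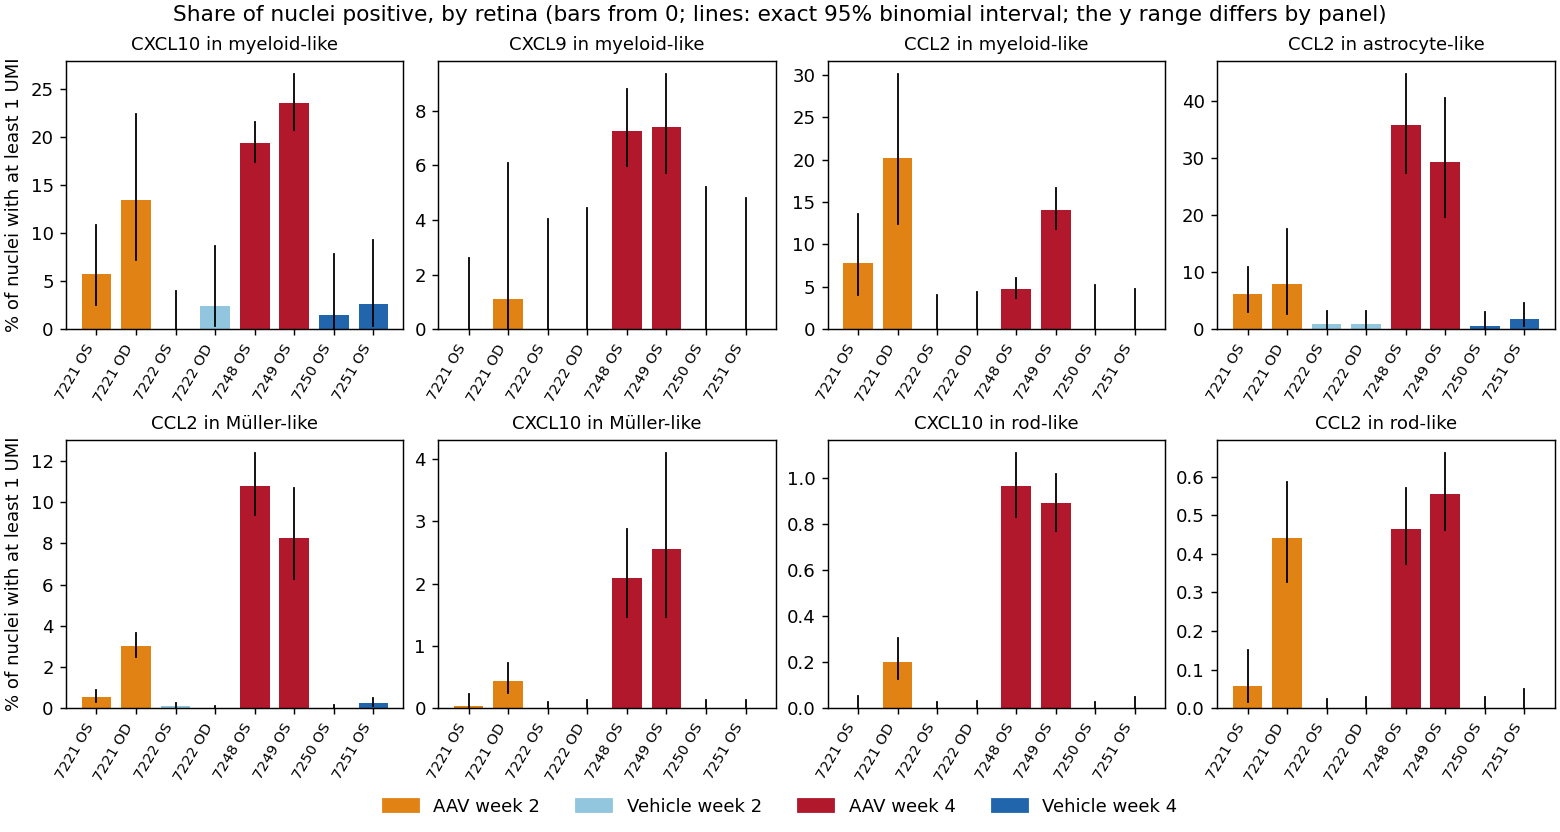
Percent of nuclei with at least 1 UMI, as bars from 0 with exact 95% binomial lines, for the 8 retinas by group. Panels show CXCL10 in myeloid-like, Müller-like and rod-like nuclei, CXCL9 in myeloid-like nuclei, and CCL2 in myeloid-like, astrocyte-like, Müller-like and rod-like nuclei, each with its own axis range. In the AAV retinas of week 4, 19.4% and 23.6% of myeloid-like nuclei held CXCL10 and 35.7% and 29.3% of astrocyte-like nuclei held CCL2, while rods stayed under 1% for both genes.

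At week 4, CCL5 and CCL3L1 had, among the named classes, their highest levels relative to rods in T or NK-like nuclei, although most CCL5 UMIs lay in other nuclei. CCL5 was present in 15.7% (13.5 to 18.1) and 16.6% (14.1 to 19.4) of T or NK-like nuclei of the week 4 AAV retinas, against 0.611% and 0.627% of rods, although the median T or NK-like nucleus had 1223 and 1180 UMIs only. Thinned shares of CCL5 were 11.6% and 11.5% against 0.262% and 0.301%. Its level of 159.8 and 158.8 CPM was 57.9 (46.5 to 72.5) and 63 (50.7 to 78.5) times that of the rods, and T or NK-like nuclei carried 29.8% and 26.6% of CCL5 UMIs. The vehicle retinas held 2 and 0 such nuclei, so that CCL5 was not tested in this class. Of the members, CCL5 had the highest level in rods of the vehicle eyes, where 0.0948% to 0.208% of rods were positive. At week 2, T or NK-like nuclei carried 1.14% and 0.61% of the CCL5 UMIs of the AAV eyes, and unassigned nuclei 36.6% and 38.1%.

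CCL3L1 was rarer, in 3.24% and 3.16% of T or NK-like nuclei (2.06% and 2.97% after thinning) and in 0.0261% and 0.0182% of rods. Its level of 22.5 and 39.1 CPM was 197.1 and 562.6 times that of the rods, whose own sums rested on few UMIs. T or NK-like nuclei carried 43.9% and 53.2% of the CCL3L1 UMIs and myeloid-like nuclei 19.5% and 12.8%. CCL3L1-positive T or NK-like nuclei held CCL5 in 33.3% and 40% of cases, against 15.1% and 15.8% of negative ones, and were deeper (medians of 1545 and 2290 against 1216 and 1158 UMIs). For CXCL8, 10 of the 16 UMIs of 7248 lay in myeloid-like nuclei and 3 of the 4 of 7249 in 1 T or NK-like nucleus. No CXCL8 UMI was found in a nucleus of the Müller-like or astrocyte-like class of any retina.

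CCL5 was called higher in Müller-like nuclei (log2 fold change 2.56 ± 0.58, adjusted p = 0.0208), but this rested on 1 animal. The level was 1.95 times that of the rods in 7248 and 0.799 times in 7249, and 27 of the 56 Müller-like CCL5 UMIs of 7248 lay in 1 nucleus. Without 7248 the call was lost (adjusted p = 0.273). In rod-like nuclei CCL5 itself was called (log2 fold change 1.67 ± 0.39, adjusted p = 0.0421), and that call was lost without 7251 (adjusted p = 0.126).

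**Figure D4:**
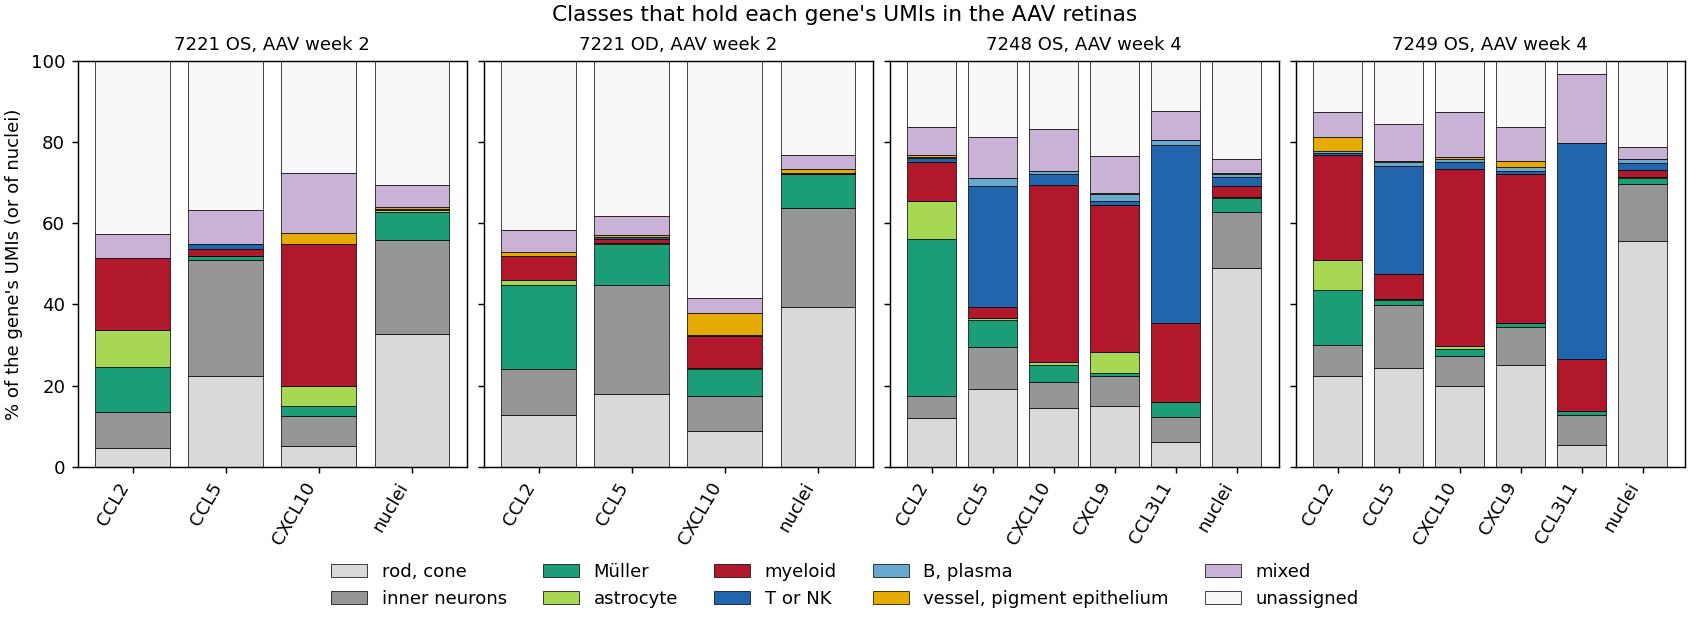
Share of a chemokine gene's UMIs by cell class, in percent of all its UMIs in the retina, for the AAV retinas of both weeks, beside the share of nuclei. Stacked bars add to 100%, and genes with few UMIs in a retina are left out. Myeloid-like nuclei carried 43.6% and 43.7% of CXCL10 UMIs at week 4, and unassigned nuclei carried 58.5% of CXCL10 UMIs in the right eye of week 2.

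Over the classes tested at week 4, the members called higher were all 5 that could be tested in rod-like nuclei (CCL2, CCL5, CXCL9, CXCL10 and CXCL11, where 5.98% of genes were called higher) and all 3 in Müller-like nuclei (CCL2, CCL5 and CXCL10, 11.7% of genes). CCL2 and CXCL10 were called in astrocyte-like nuclei (6.01% of genes), and CXCL9 and CXCL10, of 3 tested, in myeloid-like nuclei (5.82% of genes). In bipolar-like nuclei 3 of 4 were called (1.67% of genes), in cone-like nuclei 2 of 4 (0.85%), and in amacrine-like nuclei CCL5 and CXCL10 (1.49%). No member had enough counts to be tested in horizontal-like, ganglion-like or mural-like nuclei. None was called lower in any class. Many of these pairs had no UMI in either vehicle retina, CXCL10 in rod-like, Müller-like, astrocyte-like, cone-like, bipolar-like and amacrine-like nuclei, CXCL9 in rod-like and myeloid-like nuclei, and CCL2 and CXCL11 in rod-like nuclei. These passed the filter through the AAV retinas alone and had to differ, so that the counts describe the members and nothing is read from them against the share of all genes. The members called in cone-like, bipolar-like and amacrine-like nuclei stood at 0.516 to 1.18 times the rod level. The leading class of a member was the named class with its highest level in the AAV retinas of week 4, with classes of few nuclei set aside. An excess over rods in those retinas is thus partly given by this choice. In each AAV retina of week 4, the share of positive nuclei in the leading class was 10 or more times that of the rods for 5 members, namely CCL2, CCL3L1, CCL5, CXCL9 and CXCL10.

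At week 2 much of the chemokine signal of the right AAV eye lay in 1 unnamed cluster, some of whose nuclei the gates had placed in a class or among the mixed nuclei. This cluster of 1380 nuclei, led by the interferon-induced genes RSAD2, IFIT2, GBP1 and PARP14, held 216 nuclei of 7221 OS, 1077 of 7221 OD, 53 of 7248 and 34 of 7249, and none of any vehicle retina. In 7221 OD it made up 2.62% of nuclei and held 57% of CXCL10, 52% of CXCL11, 42.6% of CCL2 and 36% of CCL5 UMIs. In 7221 OS it made up 0.595% of nuclei and held 22.4% of CCL2, 14.9% of CCL5 and 2.5% of CXCL10 UMIs. The share of its nuclei with CCL2 was 8.8%, 17.6%, 30.2% and 52.9% in these 4 retinas in turn, and that with CXCL10 was 0.463%, 6.04%, 24.5% and 26.5%. At week 4 its CCL2 level of 118.2 and 154.6 CPM was above the 70.8 and 57.1 CPM of astrocyte-like nuclei in both retinas. It stood above the leading named class for CXCL10 in 7249 (225.3 CPM) and for CCL5 in 7248 (182.1 CPM, 57 UMIs in 9 nuclei), and below it for CXCL10 in 7248 (124.6 CPM) and for CCL5 in 7249 (17.7 CPM). The cluster was built from the same counts, so that its leading genes are a description, and it was given no class name. It was chosen as the unnamed cluster with the most member UMIs in the AAV retinas. Its high shares and levels of the members are thus partly given by this choice. Against all other nuclei, the Müller-like markers SLC1A3 (753.7 against 147.7 CPM), RLBP1 (189.5 against 92.4 CPM), FRZB (70.8 against 14.1 CPM), CLU (219.1 against 81.7 CPM), DAPL1 (66.3 against 10.7 CPM) and GPR37 (31.4 against 19.9 CPM) were high in it, and WIF1 (2.24 against 4.41 CPM) was low. The mural-like markers ABCC9 (62.7 against 8.89 CPM), KCNJ8 (25.7 against 1.2 CPM), NOTCH3 (26.2 against 2.32 CPM) and PDGFRB (30 against 10.1 CPM) were also high. The mural-like RGS5 (0.173 against 1.93 CPM) and ACTA2 (0.173 against 0.409 CPM) were low, and MYH11 and TAGLN were near the floor in both. Mural-like was also the next class by markers for several clusters named Müller-like.

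Across 89 sums per retina and class, the genes whose log2(CPM + 1) followed each member most closely are given as a description, since sums of the same retina share depth and free RNA. CXCL10 was followed by PSMA6 (Pearson r = 0.91), HLA-DRA (0.89) and SAMD9 (0.86), CXCL9 by IGHM (0.77), EMILIN2 (0.76) and TLR8 (0.74), and CXCL11 by TGM3 (0.73), H2AC20 (0.69) and CXCL9 (0.69). CCL5 was followed by IL7R (0.87), TXK (0.86) and RUNX3 (0.85), and CCL3L1 by IL7R (0.91), CCL4 (0.87) and CTLA4 (0.87), genes of T and NK cells. CCL2 was followed by CDKN1A (0.80), BST2 (0.77) and CYP2C42 (0.77).

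The receptors of these chemokines and other genes of the system were read from a list of 55 genes, of which 44 had a row. In whole retina sums 35 were tested, and 14 were called higher and none lower at week 4, with a median log2 fold change of 0.79, where 6.71% of all genes were called higher and 4.45% lower. The count was 2 with all 6 animals in 1 fit, 7 without 7250 and 9 without 7251. The 14 genes were 8 of 13 tested receptors, 5 of 14 other ligands (CCL14, CCL22, CCL4, CCL8 and XCL1), and CCRL2 among 5 scavenger receptors. A list gene that passed the filter through the AAV retinas alone had to differ. These counts thus describe the list and are not a test of it.

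CXCR3, the receptor of CXCL9, CXCL10 and CXCL11, gave 62 and 48 UMIs against 2 and 0 (adjusted p = 0.00975), and was found in 1.87% and 1.77% of T or NK-like nuclei. CCR2, the receptor of CCL2, gave 113 and 167 UMIs against 1 and 0 (adjusted p = 0.00224), and was found in 4.71% and 10.7% of plasma-like, 1.6% and 0.586% of myeloid-like and 0.59% and 2.15% of T or NK-like nuclei, against 0.115% and 0.145% of rods. CXCR6, the receptor of CXCL16, gave 139 and 134 UMIs against 38 and 22 (log2 fold change 1.78 ± 0.31, adjusted p = 0.0235), with 3.74% and 4.18% of T or NK-like nuclei positive. CCR7 and CXCR4, which guide lymphocytes, rose by 4.37 (adjusted p = 0.00391) and 4.99 (adjusted p = 0.00399) on the log2 scale.

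CX3CR1, the fractalkine receptor of microglia, rose in whole retina sums, from 72 and 62 to 286 and 168 UMIs (log2 fold change 1.35 ± 0.32, adjusted p = 0.0499), and fell within the myeloid-like class. There it was at 50.3 and 37.4 CPM against 149.4 and 179.7 CPM in the vehicle retinas (log2 fold change -1.75 ± 0.31, adjusted p = 0.00332). Of the nuclei with macrophage genes alone, which made up 40.4% and 27.7% of that class, 6.12% and 3.39% held CX3CR1. Nuclei with resident genes alone held it in 11.1% and 6.82% in the AAV retinas, at 50.5 and 61.3 CPM, against 17% and 24.1% in the vehicle retinas, at 184.3 and 168.2 CPM. CCL8, a monocyte attractant related to CCL2, rose in whole retina sums (log2 fold change 4.79 ± 0.38, adjusted p = 0.00144), while within myeloid-like nuclei it was at 107.7 and 117.4 CPM against 149.4 and 35.9 CPM (adjusted p = 0.509). In Müller-like nuclei the scavenger receptor ACKR2, which clears inflammatory CC chemokines, fell (log2 fold change -1.75 ± 0.42, adjusted p = 0.0242). Of the proteases that shed CX3CL1 and CXCL16 from the cell surface, ADAM10 fell (log2 fold change -0.48 ± 0.11, adjusted p = 0.0218) and ADAM17 rose (0.63 ± 0.13, adjusted p = 0.0152) in the same class.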

How the data were processed

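Nuclei were sorted by DAPI from flash-frozen retinas and sequenced as 10x Genomics 3′ libraries on 4 lanes per retina. Per the labels and methods, the authors aligned reads with Cell Ranger 8.0.0 to Sscrofa11.1 with EGFP added, and deposited filtered barcodes with raw UMI counts per gene, not normalized. These counts were read as deposited. Columns of other samples were 0 in number.

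Low-quality barcodes were removed after miQC, the study's own filter, by modelling mitochondrial share against detected genes. Each nucleus was placed in a class by Poisson gates on class markers (tail 0.0001, at least 2 distinct markers, 4 times the rate outside the class and 25% of the rate inside). Nuclei passing gates of several families were left out as mixed, and no doublet caller was run. The authors' cell annotation was not used here, so that classes were rebuilt and may differ from theirs. Unnamed clusters came from k-means (100 clusters on 30 principal components of 2000 genes).

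Counts were summed per retina and class and tested at week 4 with edgeR 4.0.16 (quasi-likelihood, TMM, filterByExpr, Benjamini-Hochberg over all genes tested, threshold 0.05) in R 4.3.3, where each retina held at least 10 nuclei of the class. T or NK-like, B-like, plasma-like, endothelial-like and pigment epithelium-like sums were not tested. DESeq2 1.42.0 was an alternative. Log2 fold changes are given ± SE, taken as the absolute log2 fold change over the square root of the test's F statistic. Where the vehicle retinas held few UMIs, this SE can be narrower than counting error and is not read as precision. The study itself compared nuclei of each cell type and timepoint between the arms, whereas sums over animals were tested here. Shares and sums carry exact 95% binomial or Poisson intervals (scipy 1.17.1), which cover counting error only. With 2 animals against 2, an exact permutation test cannot go below p = 0.333, so that shares are given without a test. Where a group had no UMI, its level was set to 3 counts over the group's retinas together and the fold is a minimum. Fits were also run on simulated counts with known folds, smaller than those of most members. No conclusion here rests on that run.

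Genes named besides the members were those of a fixed list of receptors, scavengers, other ligands and proteases called in any week 4 test, the 10 with the most UMIs, and the known receptors of the members. For likeness, the 3 genes with the highest correlation were taken for each member with at least 100 UMIs, over sums of at least 50 nuclei. The members and lists were chosen with earlier results of these data known. The unnamed cluster, co-detection and the CXCL9 to CXCL10 ratio were chosen after values were seen. Alternatives changed the scaling, test, filter, nuclei, gates and animals. CXCR1 and CXCR2 were not analysed here, and 1 receptor of the list and 1 promoter sequence are not reported here.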

Additional observations from a re-analysis of the deposited data

Results flagged for a closer look

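No group held 4 or more retinas, so that no retina was tested as an outlier. No measured chemokine gene was called for a difference between weeks in edgeR's interaction test.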

How the results depend on the processing

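Of 348 log2 folds recomputed under the alternatives, 325 kept their call and direction, 15 lost the call, 8 gained it and none reversed. Of the lost calls, 5 were lost with all 6 animals in 1 fit, 1 under the strict gate and 1 with k-means classes, and the rest without 1 animal. Of the recomputed shares of positive nuclei and of UMIs, 45 moved by more than the SD between the week 4 AAV retinas and 81 did not. Member and class pairs called higher at week 4 numbered 19, and 12 under the strict gate. Under that gate 15 recomputed folds were unchanged in call and 1 lost it, so that most of the missing pairs had no fold there. A week 4 fit without 1 animal leaves 1 animal in that arm, so that the spread comes from the other arm alone. Calls kept or lost in such fits are a description. List genes called numbered 14, but 2 with all 6 animals in 1 fit, 7 without 7250, 9 without 7251, and 7 to 13 over the animals left out. Members called for a difference between weeks numbered 0 with edgeR and 1 with DESeq2's Wald test. Members whose leading class had 10 times the rod share numbered 5, and 5 to 6 with 1 animal left out. In the smaller fits without 1 vehicle animal, calls were lost for CXCL10 in astrocyte-like nuclei (log2 fold change 6.68, adjusted p = 0.0544 without 7250), for CCL5 in amacrine-like (2.93, 0.0611) and rod-like nuclei (1.28, 0.126) without 7251, and, without 7250 and 7251 in turn, for CXCL11 in rod-like (6.92 and 7.04, adjusted p = 0.128 and 0.0863) and CCL2 in cone-like nuclei (4.32 and 7.50, adjusted p = 0.126 and 0.116). CCL2 in myeloid-like nuclei was called without the filter (adjusted p = 0.000252), with the Wald test (0.0355) and with all 6 animals (0.0169). The cause of these shifts was not tested. Replicate numbers follow accession order and pair no animals, and a fit with that number as a block, added after the data were seen, called the same numbers of 6 members and 14 list genes. Depth limits CXCL8 and CXCL11, whose sums rest on few UMIs.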

Other observations

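EGFP, the transcript of the vector, was set beside CCL2 in Müller-like nuclei of the AAV retinas. CCL2 was present in 1.67% of EGFP-positive and 0.438% of EGFP-negative nuclei in 7221 OS, in 4.52% and 2.82% in 7221 OD, in 15% and 10.5% in 7248, and in 9.52% and 8.19% in 7249. EGFP-positive Müller-like nuclei were deeper in 3 of these 4 retinas, and the intervals of the shares overlapped in each. At week 4, CXCL10 was present in 0.752% of EGFP-positive and 2.2% of EGFP-negative Müller-like nuclei of 7248 and in 2.38% and 2.56% of those of 7249. In astrocyte-like nuclei CCL2 was present in 10% against 5.22% (7221 OS), 10% against 6.98% (7221 OD), 50% against 33.6% (7248) and 14.3% against 30.7% (7249, 1 of 7 EGFP-positive nuclei). CCL2 was thus also present in Müller-like nuclei in which no EGFP was detected, which in sparse counts does not show that they lacked the vector. In the unnamed cluster led by interferon-induced genes, EGFP was present in 9.26% and 16.3% of nuclei at week 2 and in 5.66% and 2.94% at week 4.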
